A study of Mus musculus with 24 samples.

Results

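The 9 genes described here encode the core of the Hedgehog pathway, namely the ligands Shh, Ihh and Dhh, the receptor Ptch1, the signal transducer Smo, the extracellular antagonist Hhip and the transcription factors Gli1, Gli2 and Gli3. They were taken by symbol from 49592 gene symbols in 2 expression tables, and all 9 were found in both. The first experiment compared populations of the healthy adult mouse liver at homeostasis. EpCAM+ ductal cells (DCs, the cholangiocytes that line the bile ducts) were sorted from 3 mice together with stromal cells in 3 gates, namely PDGFRα+SCA1+ cells, PDGFRα+SCA1- cells and a PDGFRα-SCA1+ gate, which gave 12 samples with n = 3 mice for each population. The mice, named A, E and F, were littermates aged 12 weeks, A and E male and F female, and all were heterozygous for Pdgfra-H2BGFP (B6.129S4-Pdgfratm11(EGFP)Sor/J), a nuclear GFP reporter in the Pdgfra locus, so that PDGFRα was read from GFP. The stromal cells were gated as CD11b-, CD45- and CD31-.

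The second experiment used wild-type C57BL/6 mice aged 8 to 12 weeks and asked what DCs and SCA1+ mesenchymal cells (SCA1+Msc) express before and after 15 days of culture. It held 6 groups with n = 2 replicates each. DCs were collected at day 0, as organoids grown alone in expansion medium (EM, which is rich in growth factors) and as organoids grown on a transwell insert above SCA1+Msc cells in mesenchymal medium (MM, with serum and WNT3A). SCA1+Msc cells were collected at day 0, after culture alone and after co-culture below the organoids. Per the paper, mesenchymal cells were expanded in MM on the plates before DCs were added for 15 days. Co-cultured SCA1+Msc cells therefore spent longer in culture than the organoids above them. These SCA1+Msc cells were sorted without a PDGFRα gate, and EM and co-cultured organoids differ in medium as well as in partner. With replicates from littermates, p-values cover only the spread between these samples. In the paper the DCs and the SCA1+Msc cells of the cultures came from different littermates. Groups of the same cell type can therefore share donors, which the main fit ignores. Pdgfra itself was at 52.9 to 103 in both PDGFRα+ populations and at most at 0.0828 in DCs and PDGFRα-SCA1+ cells, and Epcam was at 1986 or more in every DC and organoid sample. PDGFRα-SCA1+ cells held high levels of the endothelial markers Pecam1 (726 to 929) and Kdr (332 to 443) although CD31, the product of Pecam1, was excluded by the gate.

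Hedgehog ligands are secreted lipid-modified proteins. In the absence of ligand PTCH1 keeps SMO inactive and GLI2 and GLI3 are processed at the primary cilium into repressor forms. Ligand binding to PTCH1 releases SMO, full-length GLI2 and GLI3 then act as activators, and Gli1, Ptch1 and Hhip are classical target genes that report pathway activity in many tissues. HHIP binds ligand at the cell surface and limits its range. In the liver, ductular cells are known as a source of ligand and mesenchymal cells as responders, mostly in the context of injury and fibrosis.

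RefSeq promoters (GRCm38.p6) were available here for 7 of the 9 genes. The 250 bases before the start site are shown for the ligands Ihh and Dhh, whose levels differed most between DC groups. They are also shown for Gli2 and Hhip, which separated freshly sorted PDGFRα+ and SCA1+Msc cells from fresh DCs. In cultured SCA1+Msc cells Hhip had no read. Each is written 5′ to 3′ on the strand of its gene with CG dinucleotides in capitals.
Ihh, chr1:74951673-74951922, minus strand: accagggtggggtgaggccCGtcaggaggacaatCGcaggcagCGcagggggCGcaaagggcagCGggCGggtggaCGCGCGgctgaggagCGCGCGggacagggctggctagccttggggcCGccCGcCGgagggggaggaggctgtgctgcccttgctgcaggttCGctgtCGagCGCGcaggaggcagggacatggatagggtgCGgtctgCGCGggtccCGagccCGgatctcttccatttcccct
Dhh, chr15:98898541-98898790, minus strand: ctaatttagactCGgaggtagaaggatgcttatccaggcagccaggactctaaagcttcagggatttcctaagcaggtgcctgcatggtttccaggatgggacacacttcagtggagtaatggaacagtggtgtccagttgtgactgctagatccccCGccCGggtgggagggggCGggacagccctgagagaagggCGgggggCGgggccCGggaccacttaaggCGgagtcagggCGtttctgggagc
Gli2, chr1:119053620-119053869, minus strand: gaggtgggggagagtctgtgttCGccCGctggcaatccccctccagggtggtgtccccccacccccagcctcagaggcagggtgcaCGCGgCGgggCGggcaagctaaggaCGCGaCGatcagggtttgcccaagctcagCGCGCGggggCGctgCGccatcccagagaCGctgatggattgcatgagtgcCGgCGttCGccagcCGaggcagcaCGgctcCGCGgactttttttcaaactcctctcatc
Hhip, chr8:80058009-80058258, minus strand: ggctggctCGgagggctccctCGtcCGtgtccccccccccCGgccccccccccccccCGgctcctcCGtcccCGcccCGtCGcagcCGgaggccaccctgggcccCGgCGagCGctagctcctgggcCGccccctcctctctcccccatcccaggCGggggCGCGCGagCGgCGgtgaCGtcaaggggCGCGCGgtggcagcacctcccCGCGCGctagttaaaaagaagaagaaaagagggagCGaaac

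The windows of Ihh, Gli2 and Hhip held 24, 22 and 28 CG dinucleotides and that of Dhh 9, against a median of 6 over 32851 promoters, and 88.0%, 85.2%, 92.4% and 59.7% of all promoters held fewer than Ihh, Gli2, Hhip and Dhh, in that order. The GLI motif GACCACCCA was searched on both strands of the same window and occurs in 0.225% of all promoters and, with 1 mismatch allowed, in 5.79%. None of the 7 promoters held it at either stringency, and the nearest stretch in the 4 shown had 2 mismatches.

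In the GENCODE M21 annotation of GRCm38 the ligand genes lie at chr5:28456815-28467256 (Shh), chr1:74945315-74951672 (Ihh) and chr15:98891152-98898540 (Dhh). Ptch1 lies at chr13:63508328-63573598, Smo at chr6:29735503-29761365 and Hhip at chr8:79965851-80058006. Gli1, Gli2 and Gli3 lie at chr10:127329882-127341974, chr1:118834132-119053619 and chr13:15463235-15730026. Values are sums over the exons of each gene. Dhh shares 546 exonic bases with Rhebl1 on the same strand, and Gli1 shares 62 with Arhgap9 on the opposite strand, whose reads the libraries cannot tell apart. Dhh also shares 1107 bases with Gm49442 and Gli1 265 with Gm47200, both on the opposite strand, and Gli3 shares 188 with Gm6556 and Hhip 175 with Gm27820. These overlaps are those of the M21 exons. The deposited values fit shorter exon lengths for Dhh (2364 bases against 4399) and Gli1 (3667 against 4995). The paper counted reads with a different GRCm38 annotation, which was not compared here. Whether the bases that these genes share were counted is therefore not known. Gm49442 and Gm47200 had no deposited value. Rhebl1 lay at 22.3 to 59.0 in DCs at homeostasis, where Dhh was at 0, and at 24.5 to 43.3 in PDGFRα-SCA1+ cells, where Dhh was high. In PDGFRα+SCA1- cells Rhebl1 was at 43.8 in mouse A, 0 in mouse E and 4.21 in mouse F.

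Expression at homeostasis is given as the value deposited by the authors, which is set per gene length and is close to TPM (transcript counts scaled to one fixed total per sample). Depth was 19.6 to 25.7 M reads per sample, and a value was told apart from 0 only above 3 reads, which for Dhh is at most 0.203. In bulk samples, fewer cells that express a gene and less RNA per cell cannot be told apart.

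Among the ligands, Dhh had most reads in stroma. In PDGFRα-SCA1+ cells it lay at 17.6, 30.6 and 31.0 in mice A, E and F, from 301 to 459 reads. In DCs no read was counted for Dhh in any of the 3 mice, which makes the mean of 26.4 ± 7.67 (SD, n = 3) in PDGFRα-SCA1+ cells at least 130-fold higher than the 3-read limit. PDGFRα+SCA1+ cells held it in mouse F only (1.34), whereas PDGFRα+SCA1- cells held 18.9 in mouse A, 8.04 in mouse E and none in mouse F. Against DCs, Dhh differed in PDGFRα+SCA1- cells by 2.496 ± 0.91 on the scale of log2(value + 1) (SE, adjusted p = 0.0583, limma), and by 3.74 without the library of mouse F (adjusted p = 0.00102). It was higher in PDGFRα-SCA1+ cells than in DCs by 4.73 ± 0.91 (adjusted p = 0.00218) and higher than in PDGFRα+SCA1+ cells by 4.32 ± 0.91 (adjusted p = 0.00521). Against PDGFRα+SCA1- cells the groups overlapped and the difference of 2.24 ± 0.91 did not pass (adjusted p = 0.103), but it did without the PDGFRα+SCA1- library of mouse A (3.14, adjusted p = 0.0193).

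The endothelial markers moved with Dhh in these populations. All 4 of 4 (Kdr, Pecam1, Cdh5 and Flt4) were higher in PDGFRα-SCA1+ cells than in DCs, and their summed value was 1641 to 1758 there and 2.46 to 14.8 in the other 9 samples. In PDGFRα+SCA1- cells, where Dhh was also found in 2 mice, that sum was only 4.85 to 14.8. The part of the endothelial markers in the Dhh result was not tested.

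The other ligands were sparse. Ihh lay at 1.98 in DCs of mouse A (40 reads) and 4.42 in mouse F (79 reads) but at 0 in mouse E. In stroma it was found in 1 of 3 PDGFRα+SCA1+ samples (0.794) and 1 of 3 PDGFRα-SCA1+ samples (0.546). Ihh did not reach the value of 1 in 3 samples that a test required. Shh had no read in any of the 12 samples.

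The receptor and the transducer were found in every population. Ptch1 had its highest mean in PDGFRα+SCA1+ cells, at 24.1 in mouse A, 19.8 in mouse E and 20.7 in mouse F. In DCs it lay at 7.05, 6.48 and 8.42. These groups did not overlap, but the difference of 1.44 ± 0.79 on the log2(value + 1) scale did not pass the threshold (adjusted p = 0.223) except in a fit of the 2 populations alone and after quantile normalization. PDGFRα-SCA1+ cells held Ptch1 at 4.97, 3.23 and 10.7. In PDGFRα+SCA1- cells it was at 16.9 in mouse E, 10.1 in mouse F and only 0.449 (42 reads) in mouse A.

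Smo lay at 20.4 to 23.0 in PDGFRα+SCA1+ cells, the tightest of the 4 populations. PDGFRα+SCA1- cells ranged from 6.54 in mouse A to 42.3 in mouse E and 55.8 in mouse F. DCs held 3.77 to 14.9 and PDGFRα-SCA1+ cells 0.161 (6 reads) to 12.9. None of the 6 comparisons between populations called Smo or Ptch1, and the lowest adjusted p for Smo was 0.083, for PDGFRα-SCA1+ against PDGFRα+SCA1- cells. Some alternatives called them. Smo passed for PDGFRα+SCA1+ cells against DCs in a fit of both alone (adjusted p = 0.0395) and for PDGFRα-SCA1+ against PDGFRα+SCA1+ cells after quantile normalization (adjusted p = 0.0417), where Ptch1 passed in both of these settings (adjusted p = 0.0135 after quantile normalization and 0.0455 in a fit of both alone).

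Hhip, the antagonist, was found in PDGFRα+ cells. It lay at 58.3 and 82.4 in the PDGFRα+SCA1- samples from A and E but at 1.71 in mouse F. PDGFRα+SCA1+ cells held 4.42, 17.7 and 4.71. In DCs and PDGFRα-SCA1+ cells at most 1 read was counted per sample. PDGFRα+SCA1- cells were above DCs by 4.56 ± 1.06 (adjusted p = 0.00678) and above PDGFRα-SCA1+ cells by the same margin (adjusted p = 0.00891). For PDGFRα+SCA1+ cells the difference from DCs was 3.05 ± 1.06 with an adjusted p of 0.0568, which became 0.0481 with the mouse as a block and also passed with a pseudocount of 0.1, a minimum of 5, quantile normalization and a fit of the 2 populations alone.

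The GLI genes were found mainly in PDGFRα+ cells. In PDGFRα+SCA1+ cells Gli1 lay at 31.8 in mouse A, 31.1 in mouse E and 36.8 in mouse F. In PDGFRα+SCA1- cells it was spread from 1.85 in mouse A to 18.1 in mouse E and 42.9 in mouse F. DCs held 1 read in 1 of 3 samples, and PDGFRα-SCA1+ cells held 4.18 in mouse E and none in the other two. The same sample of mouse E, which also had the lowest Smo, stood apart in its summed ductal markers, 3706 against 79.2 in mouse A and 314 in mouse F. Arhgap9, the gene it overlaps, was at most at 1.41 in PDGFRα+ cells. Mouse A therefore had low Gli1 and low Ptch1 beside high Hhip in its PDGFRα+SCA1- sample, and mouse F had the reverse order of Gli1 and Hhip.

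Gli2 lay at 7.55, 13.1 and 11.6 in PDGFRα+SCA1+ cells and at 20.5, 2.66 and 48.9 in PDGFRα+SCA1- cells, with at most 3 reads in any DC or PDGFRα-SCA1+ sample. Gli3 lay at 12.7, 16.9 and 27.0 in PDGFRα+SCA1+ cells and at 10.6, 26.2 and 21.2 in PDGFRα+SCA1- cells. The other 6 samples held at most 0.532 of Gli3. All samples of both PDGFRα+ populations thus lay above all DC and PDGFRα-SCA1+ samples for Gli2 and for Gli3.

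**Figure D1:**
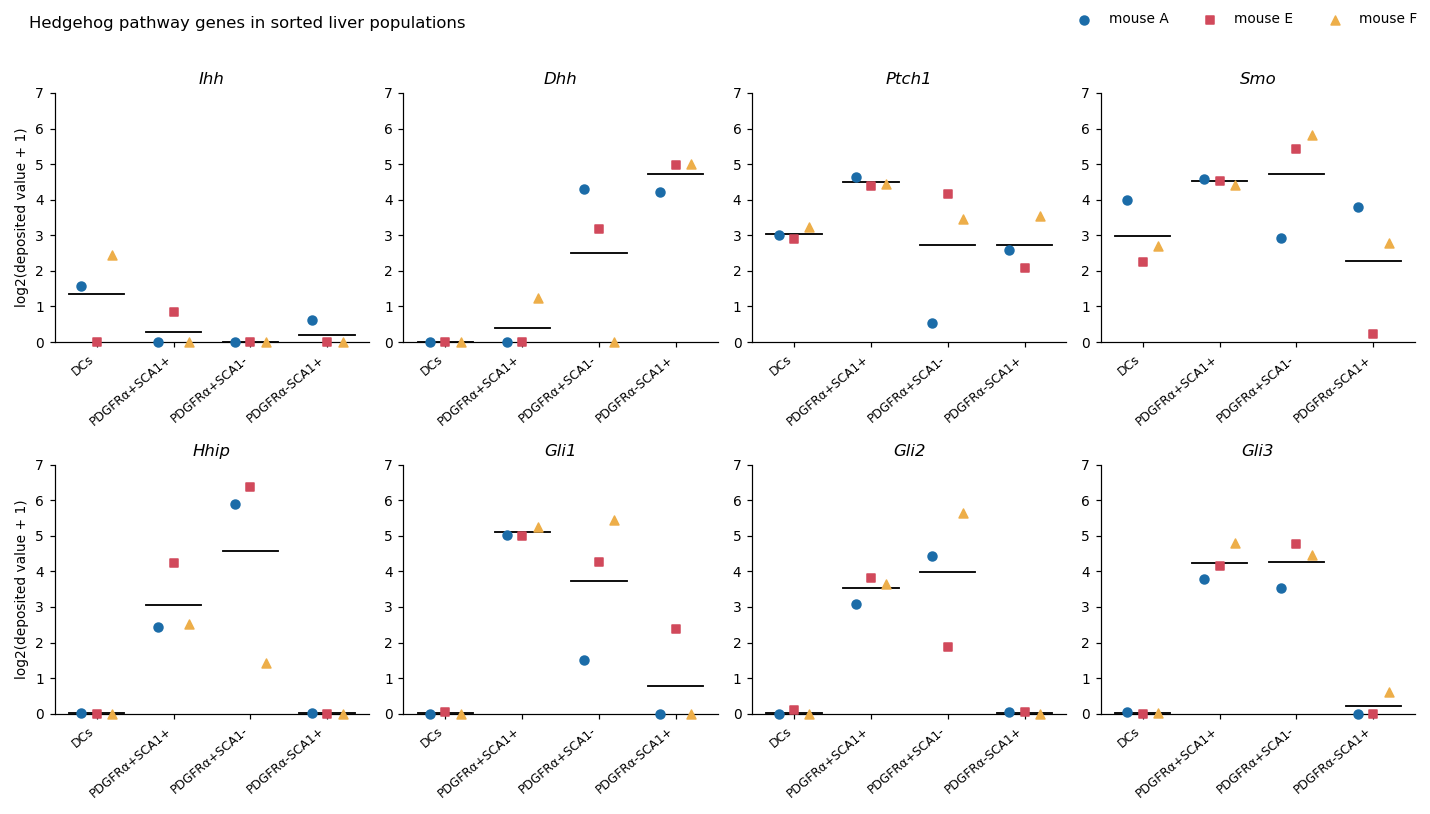
Level of 8 Hedgehog genes in each sorted population, as log2(deposited value + 1), with 1 point per mouse (shape and colour) and the mean of the 3 mice as a bar. Gli2, Gli3 and Hhip lie above all DC samples in both PDGFRα+ populations, Dhh is highest in PDGFRα-SCA1+ cells, and Shh, which had no read, is not drawn.

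Counted together, 7 of the 9 genes had enough signal to be tested at homeostasis. PDGFRα+SCA1+ cells differed from DCs in 3 of the 7, with Gli1 (5.07 ± 0.93, adjusted p = 0.00152), Gli2 (3.49 ± 0.79, adjusted p = 0.00622) and Gli3 (4.23 ± 0.54, adjusted p = 9.35e-05) higher, where 23.8% of the 17028 genes tested were called. A fit of these 2 populations alone called 6 of the 7 and quantile normalization 5. PDGFRα+SCA1- cells differed from DCs in 4 of the 7, against 28.8% of all genes, with Gli1 (3.72 ± 0.93, adjusted p = 0.00997), Gli2 (3.95 ± 0.79), Gli3 (4.24 ± 0.54) and Hhip higher. Only 2 of these remained past the threshold in a fit of the 2 populations alone. PDGFRα-SCA1+ cells differed from DCs in Dhh only, 1 of the 7 against 22.8% of all genes.

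Between stromal populations, PDGFRα-SCA1+ cells differed from PDGFRα+SCA1+ cells in 4 of the 7 (18.8% of all genes), with Dhh higher and Gli1 (-4.30 ± 0.93), Gli2 (-3.50 ± 0.79) and Gli3 (-4.04 ± 0.54, adjusted p = 0.000202) lower, and in 6 after quantile normalization or in a fit of both alone. Against PDGFRα+SCA1- cells 4 of the 7 were lower (21.5% of all genes), namely Gli1, Gli2, Gli3 and Hhip, although a fit of the 2 populations alone called 1. Of these Gli1 was the least firm, at -2.95 ± 0.93 with an adjusted p of 0.04 that rose above the threshold without any one of 4 samples, up to 0.125 without the PDGFRα+SCA1- library of mouse F.

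The PDGFRα+ populations, which differ by SCA1, passed the test in 0 of the 7 genes, while 0.587% of all genes were called (100, and 1985 at an unadjusted p under 0.05). In limma the lowest adjusted p was 0.402, for Dhh at -2.09 ± 0.91, and Ptch1 differed by 1.77 ± 0.79 (adjusted p = 0.415). Gli1 differed by 1.35 ± 0.93 and Hhip by -1.51 ± 1.06. Without the PDGFRα+SCA1- library of mouse F, 2 of the 7 were called, Dhh (-3.34, adjusted p = 0.0277) and Hhip (-3.08, adjusted p = 0.0397), both lower in PDGFRα+SCA1+ cells. Markers differed between these samples too. The 4 stellate cell markers summed to 7084, 8046 and 2761 in PDGFRα+SCA1- cells of A, E and F, highest in the mice with high Hhip and Dhh, and to 1755 to 2074 in PDGFRα+SCA1+ cells, and 0 of 4 passed the test between both populations. All 4 of 4 smooth muscle markers were lower in PDGFRα+SCA1+ cells, with sums of 129 to 169, and lay at 1236, 1889 and 2769 in PDGFRα+SCA1- cells of A, E and F, lowest where Dhh was highest. The part of either list in the spread of Hhip and Dhh was not tested.

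Other pathway genes were counted in 4 lists. Of the genes for ligand release and co-receptors, 9 of 11 were tested and 6 were higher in PDGFRα+SCA1+ cells than in DCs, with a median difference of 2.498 beside -0.28 over all genes, of which 23.8% were called. They were led by the co-receptors Gas1 (330 to 458 against 2.53 to 6.21), Boc (74.8 to 80.6 against 0 to 0.870) and Cdon (18.8 to 31.0 against 0.176 to 3.39). In PDGFRα+SCA1- cells 5 of the 9 were higher than in DCs (median 2.65 beside -0.47), with Gas1 at 920 to 1304, where 28.8% of all genes were called. PDGFRα-SCA1+ cells had 3 higher and 2 lower (median 0.89 beside -0.04), where 22.8% of all genes were called. Among them Gpc3, a glypican that competes for ligand, was at most at 1.31 against 16.5 to 20.5 in DCs, and Boc was at 5.08 to 11.1.

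Of 12 genes known to respond to the pathway, 6 were higher and 1 lower in PDGFRα+SCA1+ cells than in DCs (median difference 2.48), and likewise in PDGFRα+SCA1- cells (median 2.90 beside -0.47 over all genes). Over all genes 23.8% and 28.8% were called for these PDGFRα+ populations. Foxf1, a mesenchymal forkhead factor, lay at 180 to 230 and 207 to 304 in these populations and at most at 0.331 in DCs. In PDGFRα-SCA1+ cells 3 were higher and 1 lower than in DCs (22.8% of all genes were called), among them Bmp4 (246 to 405) and Snai2 (65.9 to 97.6) higher. Of the 15 intracellular regulators and 12 cilium genes few passed against DCs. In PDGFRα+SCA1+ and PDGFRα+SCA1- cells 2 and 3 regulators were higher. PDGFRα-SCA1+ cells had 1 regulator higher and 3 lower. In each of the 3 stromal populations 1 cilium gene was lower. Over all genes 23.8%, 28.8% and 22.8% were called, in the order PDGFRα+SCA1+, PDGFRα+SCA1- and PDGFRα-SCA1+. Kif7, a kinesin gene from the list of regulators, was at 0 in DCs and at 3.50 to 7.50 in PDGFRα+SCA1+ cells.

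In the transwell experiment levels are TPM, made from the RPKM that the authors deposited, at 17.6 to 26.1 M reads per sample. In ductal cells Ihh was higher in both cultures and Dhh in co-culture than at day 0. Ihh lay at 2.06 and 1.73 TPM in DCs at day 0, at 11.3 and 13.4 in EM organoids and at 20.1 and 16.7 in co-cultured organoids. The organoid means were 6.50 and 9.69 times that of day 0. Differences from day 0 were 2.20 ± 0.27 (adjusted p = 0.000164) in EM organoids and 2.74 ± 0.27 (adjusted p = 4.63e-05) in co-cultured organoids on the log2(TPM + 1) scale. The change between both organoid groups, 0.54 ± 0.27, did not pass (adjusted p = 0.261). Ihh had no read in any SCA1+Msc sample. Those samples add no spread to its error, so the p-values of Ihh may be too low.

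Dhh was scarce in DCs at day 0, at 0.787 (16 reads) and 0.473 (7 reads). Co-cultured organoids held 13.7 and 18.9, a mean 25.8 times that of day 0. The replicates of EM organoids disagreed, at 4.80 and 0.729. Dhh was higher in co-cultured organoids than at day 0 by 3.40 ± 0.80 (adjusted p = 0.00721), a call that a pseudocount of 0.1 ended (4.50, adjusted p = 0.102). The difference from EM organoids, 2.43 ± 0.80, missed the threshold (adjusted p = 0.0821) on TPM but passed on RPKM as deposited (1.89, adjusted p = 0.0131). Rhebl1, which shares exon with Dhh, lay at 5.95 and 6.39 in co-cultured organoids and at 19.3 and 22.5 in DCs at day 0. Endothelial markers summed to 8.20 to 8.62 in co-cultured organoids and to at most 21.3 in DCs at day 0, and 3 of 4 fell. All 4 proliferation markers rose in both organoid groups, with sums of 5.59 to 10.9 at day 0 and 115 to 132 in culture. Of the 4 hepatocyte markers 2 fell in EM and 3 in co-cultured organoids, with sums of 4155 to 5267 at day 0, 1339 to 1404 in EM and 153 to 347 in co-culture. The part of these markers in the Ihh and Dhh results was not tested.

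Shh, with no read at homeostasis, gave 18 reads (0.99 TPM) in EM organoid replicate 2 and none in replicate 1. Co-cultured organoids held 1 and 6 reads. Gm26894, which overlaps Shh on the genome, reached 1.52 in co-cultured organoids. The remaining 8 samples had no read for Shh, and it was too sparse to test.

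Ptch1 lay at 3.83 and 3.47 TPM in DCs at day 0, at 8.96 and 8.08 in EM organoids and at 6.70 and 6.04 in co-cultured organoids. The groups did not overlap. EM organoids were above day 0 by 1.03 ± 0.23 (adjusted p = 0.00468) and co-cultured organoids by 0.66 ± 0.23 (adjusted p = 0.0405). The latter call was lost without any one of the 4 samples (0.60 to 0.73, adjusted p up to 0.165).

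Smo was present throughout, at 11.1 and 10.8 at day 0, 26.3 and 23.7 in EM organoids and 14.7 and 13.8 in co-cultured organoids. EM organoids differed from day 0 by 1.12 ± 0.42 (adjusted p = 0.0538). No read of Gli1 or Gli2 was counted in any of the 6 ductal samples. Gli3 was found in EM organoid replicate 2 (17 reads) and co-cultured organoid replicate 1 (34 reads), and Hhip in EM organoids alone (9 and 50 reads). Ductal samples therefore held Ptch1 and Smo at several TPM beside Gli1 and Gli2 at 0 in all 6. Their ligands summed to 2.20 and 2.85 TPM at day 0. The sums were 15.1 and 16.1 in EM organoids and 33.8 and 35.8 in co-cultured organoids.

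**Figure D2:**
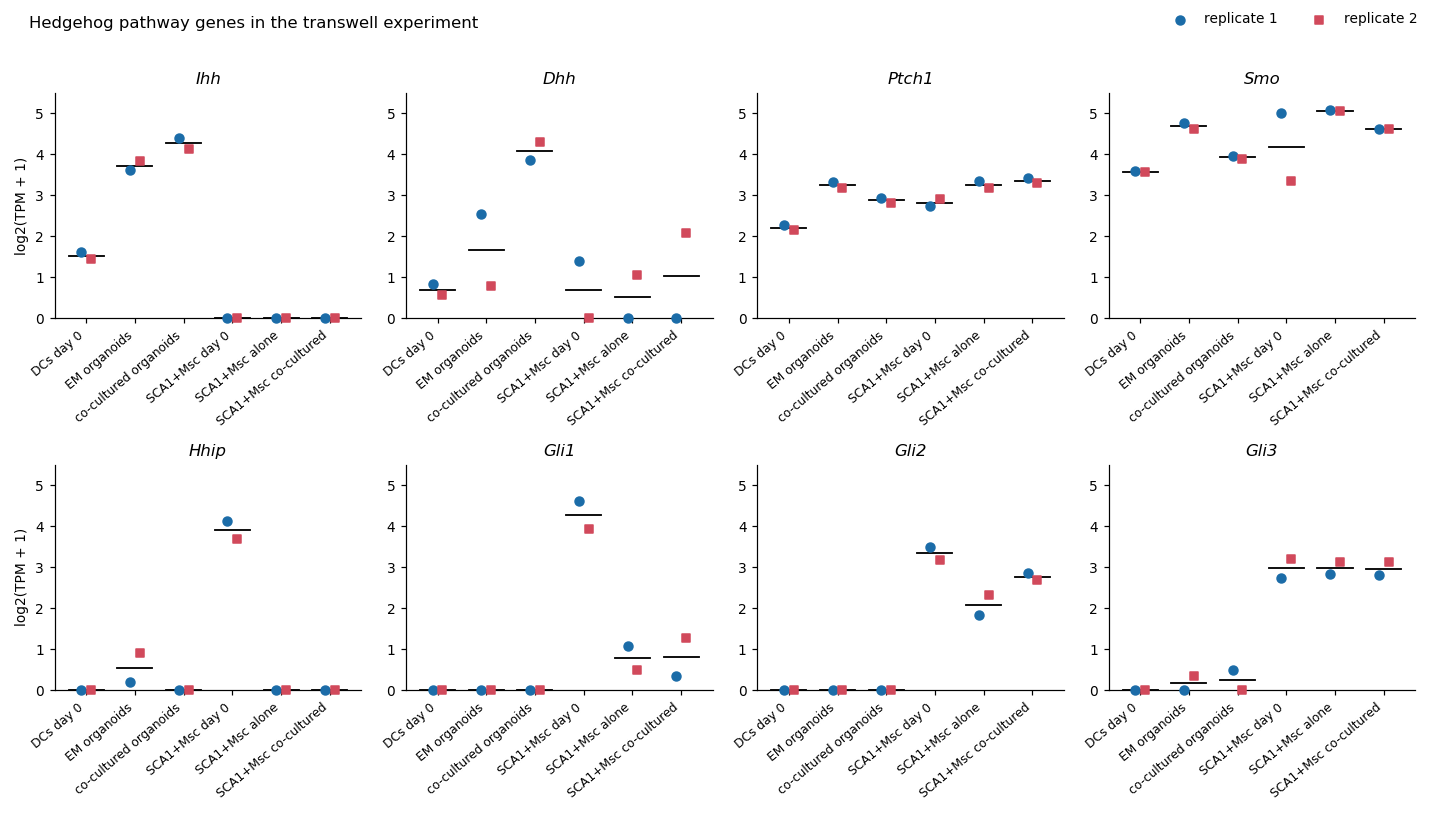
Level of 8 Hedgehog genes in each transwell group as log2(TPM + 1), with 1 point per replicate and the mean of the 2 replicates as a bar. Ihh and Dhh are highest in co-cultured organoids, whereas Gli1 and Hhip are high in SCA1+Msc cells at day 0 and at or near 0 in both cultured SCA1+Msc groups.

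SCA1+Msc cells held the GLI genes and Hhip. At day 0 Gli1 lay at 23.5 and 14.2 TPM, Gli2 at 10.3 and 8.09, Gli3 at 5.69 and 8.18 and Hhip at 16.5 and 11.8. The same genes had no read in DCs at day 0, so that the means were at least 144-fold (Gli1), 132-fold (Gli2), 139-fold (Gli3) and 268-fold (Hhip) above the 3-read limit there. Ihh had no read in any of the 6 SCA1+Msc samples. Dhh was found in 1 replicate of each SCA1+Msc group, at 1.65, 1.09 and 3.22, and was at 0 in the other.

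In cultured SCA1+Msc cells, collected at day 15 after an expansion in MM, Gli1 and Hhip were lower than at day 0. Gli1 lay at 1.10 and 0.408 in cells cultured alone and at 0.259 and 1.40 in co-cultured cells, so that the day 0 mean was 24.9 and 22.7 times that in culture. Arhgap9, which overlaps Gli1, lay at 1.94 to 5.55 alone and 0.959 to 3.75 in co-culture. The limma difference of Gli1 was -3.48 ± 0.40 alone (adjusted p = 9.97e-05) and -3.47 ± 0.40 in co-culture (adjusted p = 0.000106). Gli1 had no read in any ductal sample. Those samples add no spread to its error, so these p-values may be too low. Hhip had no read in any of the 4 cultured samples. Its day 0 mean of 14.1 ± 3.34 (SD, n = 2) was at least 315 times the 3-read limit alone and 271 times that in co-culture. This limit covers counting error only, and replicates can differ by more. Dhh, for example, had 0 and 55 reads in the co-cultured SCA1+Msc replicates. The fitted difference of Hhip was -3.90 ± 0.32 in both cultures (limma adjusted p = 1.35e-05 and 1.43e-05). Only the 2 day 0 samples reached the minimum of 1 TPM, so the high group itself admitted Hhip to the test. Groups at 0 in every sample add no spread to its error. These p-values of Hhip are therefore no independent support for its fall.

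Gli2 passed the test only in cells cultured alone. It lay at 2.54 and 4.01 in cells cultured alone and at 6.21 and 5.46 in co-culture. Alone it fell by 1.27 on the log2 scale (SE 0.30, adjusted p = 0.00677), a call lost with a pseudocount of 0.1 and in a fit of the 2 groups alone (adjusted p up to 0.107), and in co-culture the difference from day 0 was -0.57 ± 0.30 (adjusted p = 0.155). Gli3 lay at 6.08 and 7.70 alone and at 5.95 and 7.71 in co-culture, and its differences from day 0 were 0.00 ± 0.33 and -0.01 ± 0.33. The day 0 samples lay within 5.69 to 8.18, so the 6 values of Gli3 covered the same range.

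Ptch1 is a target gene like Gli1 and Hhip. It lay at 5.69 and 6.50 at day 0, at 9.14 and 8.14 alone and at 9.68 and 8.85 in co-culture, with both cultured groups above both day 0 samples. These differences of 0.44 ± 0.23 and 0.53 ± 0.23 did not pass (adjusted p = 0.147 and 0.0867). Smo lay at 31.5 and 9.20 at day 0, 32.8 and 32.3 alone and 23.5 and 23.7 in co-culture, and its difference alone, 0.88 ± 0.42 (adjusted p = 0.116), was 0.05 without day 0 replicate 2 and 1.72 without day 0 replicate 1, where it passed (adjusted p = 0.000157).

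Other markers moved beside Gli1 and Hhip. The 4 hepatocyte markers summed to 17201 and 21643 TPM in SCA1+Msc cells at day 0 and to between 25.4 and 381 in culture, and all 4 fell. Of the 5 mesenchymal markers 2 rose and none fell, with sums of 3570 to 4222 at day 0 and 7300 to 9873 in culture, and Pdgfra itself was at 81.2 and 123 at day 0 and at 194 to 302 in culture. Of the 4 stellate markers 3 fell (Lrat, Reln and Ecm1) and 1 rose (Hand2) in both cultures, with sums of 2303 to 2921 at day 0 and 867 to 1087 in culture. Of the 4 portal fibroblast markers Fbln2 rose and Eln fell in both cultures, and Cd34 fell in co-culture. Their sums were 524 to 669 at day 0 and 1575 to 1683 in culture. Of the 5 ductal markers 4 fell in both, with sums of 1156 to 2417 at day 0 and 211 to 553 in culture. Of the 4 smooth muscle markers 1 rose and 1 fell, with sums of 567 to 778 at day 0 and 3123 to 3883 in culture. All 4 proliferation markers rose. Of the 4 endothelial markers 2 fell alone and 1 in co-culture, with sums of 149 to 162 at day 0 and 89.4 to 171 in culture. The part of these markers in the result was not tested, and time in culture, medium and plate cannot be told apart.

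By counts, 3 of 8 tested genes fell in SCA1+Msc cells cultured alone (44.8% of 18135 genes were called) and 2 of 8 in co-culture (43.3%). Hhip was above 1 in the 2 day 0 samples only, so that it was not tested without either of them, and its call rests on both. In co-culture 1 gene was then lower without day 0 replicate 2, and 1 was lower and 1 higher without day 0 replicate 1. SCA1+Msc cells differed between culture alone and co-culture in 0 of 8 (limma), where 0.127% of all genes were called (23, and 1262 at an unadjusted p under 0.05). The nearest was Gli2, higher in both co-cultured samples than in both samples alone (0.70 ± 0.30, adjusted p = 0.698), and Gli1 differed by 0.01 ± 0.40. Organoids differed from day 0 in 2 of 8 in EM (44.4% of all genes) and in 3 of 8 in co-culture (42.3%), and from each other in 0 of 8 (12.9% of all genes, 2344, and 4685 at an unadjusted p under 0.05).

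**Figure D3:**
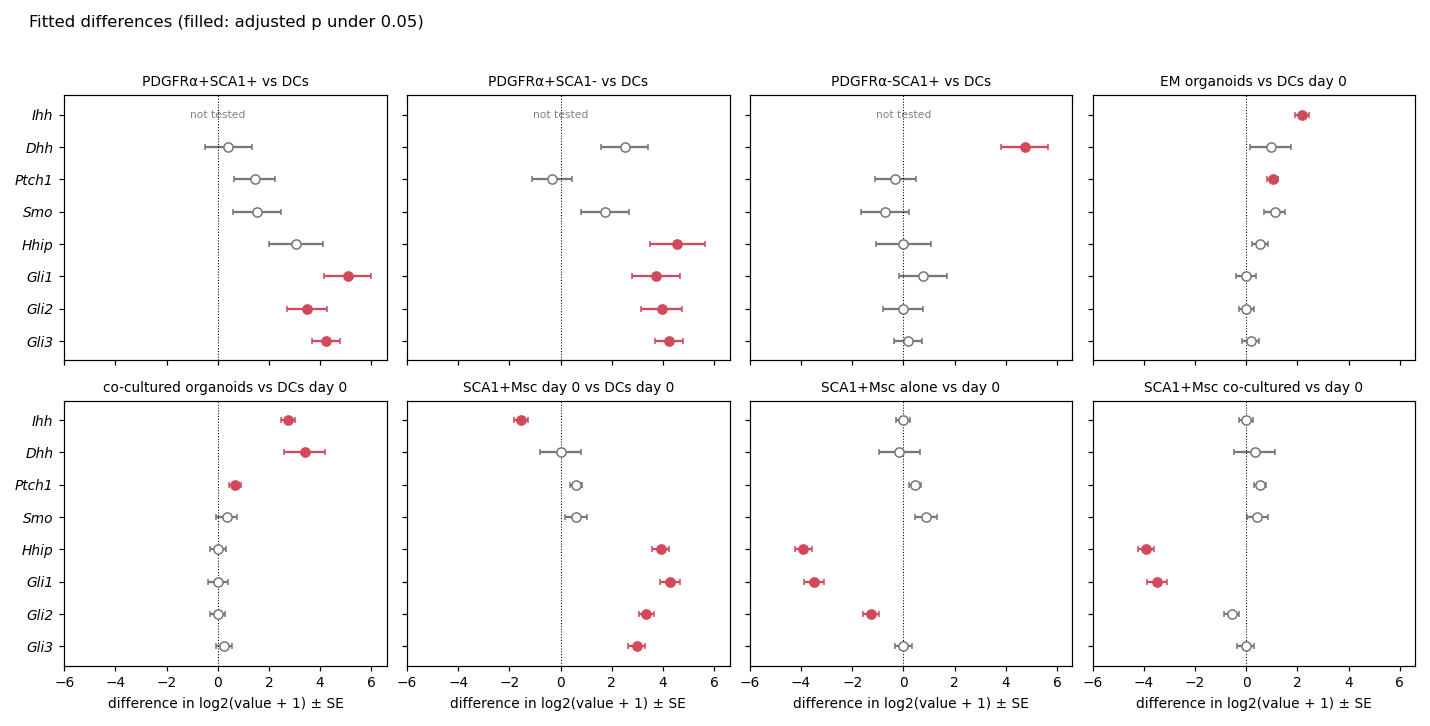
Fitted differences in log2(value + 1) with their standard errors for 8 genes in 8 comparisons, filled where the limma adjusted p was under 0.05. Gli1, Gli2 and Gli3 lie to the right in both PDGFRα+ populations against DCs, Ihh lies to the right in both organoid groups, and Gli1 and Hhip lie to the left in both cultured SCA1+Msc groups.

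Across compartments, SCA1+Msc cells and DCs differed at day 0 in 5 of 8 genes (46.1% of all genes), with Gli1 (4.27 ± 0.40), Gli2 (3.34 ± 0.30), Gli3 (2.97 ± 0.33) and Hhip (3.90 ± 0.32) higher and Ihh lower (-1.53 ± 0.27) in SCA1+Msc cells. Hhip entered this test through its day 0 SCA1+Msc samples only, so its call is no independent support. After co-culture 4 of 8 differed (36.7% of all genes). Gli2 (2.77 ± 0.30) and Gli3 (2.72 ± 0.33) were higher in SCA1+Msc cells and Ihh (-4.27 ± 0.27) and Dhh (-3.05 ± 0.80, adjusted p = 0.0136) in organoids, and Dhh lost its call without co-cultured organoid replicate 2 or co-cultured SCA1+Msc replicate 1, with a pseudocount of 0.1 and in a fit of the 2 groups alone (adjusted p from 0.0769 to 0.109). Gli1 and Hhip did not pass, at 0.80 ± 0.40 (adjusted p = 0.155) for Gli1 and with no read on either side for Hhip.

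The change from day 0 to co-culture was itself compared between both cell types, and 3 of 8 genes differed (28.3% of all genes). SCA1+Msc cells had been expanded in MM first, so the times in culture were unequal. The change of Ihh was lower in SCA1+Msc cells than in organoids by 2.74 ± 0.39 (log2 difference -2.74, adjusted p = 0.000914). The change of Gli1 differed by -3.47 ± 0.56 (adjusted p = 0.0018) and that of Hhip by -3.90 ± 0.45 (adjusted p = 0.000313). Hhip entered this test through its day 0 SCA1+Msc samples only. Dhh differed by -3.06 ± 1.13 (adjusted p = 0.0723), a value that passed on RPKM as deposited (-2.28, adjusted p = 0.0152) and without day 0 SCA1+Msc replicate 2 or co-cultured SCA1+Msc replicate 2 (adjusted p = 0.0475 and 0.0287), and Ptch1 by -0.13 ± 0.32 (adjusted p = 0.806).

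Among genes for ligand release and co-receptors, Gas1 (308 to 519 TPM at day 0, 300 to 424 in culture) and Boc (52.4 to 68.1 and 50.4 to 71.8) were found in SCA1+Msc cells at all times. Of 10 tested, 2 rose and 2 fell alone and 3 rose and 3 fell in co-culture, where 44.8% and 43.3% of all genes were called. Gpc3 fell from 182 and 187 to between 14.7 and 26.8. Disp1, the transporter that releases ligand, rose alone from 1.88 and 5.19 to 21.9 and 24.8. In organoids Scube3, a secreted carrier of ligand, fell in both media, while Gpc3 rose to 293 and 323 in EM organoids from 7.78 and 9.50 and was at 6.07 and 14.3 in co-culture.

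Genes known to respond to the pathway did not share one direction in SCA1+Msc cells. Alone 5 rose and 4 fell of 12 (median difference 0.80 beside 0.18 over all genes), and in co-culture 4 rose and 2 fell (median 0.30 beside 0.17), where 44.8% and 43.3% of all genes were called. Mycn fell alone from 10.3 and 13.98 to at most 1.15, whereas Foxf2 (6.74 to 9.60 at day 0, 30.8 to 58.2 alone) and Sfrp1 (301 to 392 and 1610 to 1640) rose. In organoids Mycn and Bmp4 rose in both media, with Mycn at 1.34 to 2.57 at day 0 and 12.8 to 15.8 in culture.

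Of the 15 intracellular regulators 4 rose alone and 5 in co-culture in SCA1+Msc cells and none fell, and 7 rose in EM and 3 in co-cultured organoids. These shares are near or under those of all genes (44.8%, 43.3%, 44.4% and 42.3%). Prkaca, the catalytic subunit of protein kinase A that primes GLI processing, led in all 4 comparisons (19.8 to 34.5 in SCA1+Msc cells at day 0, 107 to 138 in culture). Of the 12 cilium genes 6 rose in EM organoids (median difference 0.92 beside 0.12 over all genes), near the share of 44.4% of all genes called, whereas 1, the gene of a ciliary GTPase, Arl13b, fell in co-cultured organoids. Arl13b also fell in SCA1+Msc cells, from 40.7 and 43.3 to between 8.30 and 11.0. There 5 of the 12 cilium genes rose alone and 4 in co-culture, where 44.8% and 43.3% of all genes were called. Msln, a mesothelial marker, stood at 3879 and 4500 TPM in co-cultured organoids against 86.0 and 109 at day 0. Of the 4 mesothelial markers it alone passed as higher there, and Gpm6a fell. The part of these markers in the results was not tested.

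**Figure D4:**
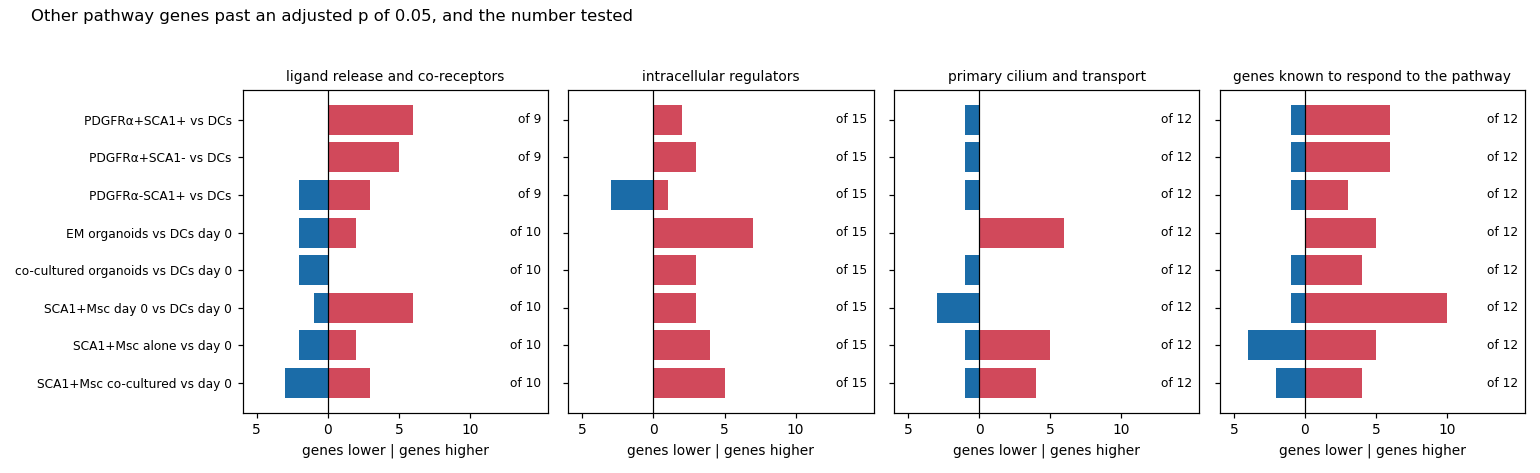
Number of genes of 4 Hedgehog pathway lists that were higher (right of 0) or lower (left of 0) past a limma adjusted p of 0.05 in 8 comparisons, with the number tested at the right of each bar. Ligand release and co-receptor genes and responsive genes lie mostly to the right in PDGFRα+ cells and in SCA1+Msc cells at day 0 against DCs. In EM organoids 6 of 12 cilium genes were higher, near the 44.4% of all genes called. In SCA1+Msc cells 5 were higher alone and 4 in co-culture, with 1 lower in each, where 44.8% and 43.3% of all genes were called.

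The genes whose levels were most similar to each member were taken by the average Pearson correlation of log2(value + 1) over the 12 homeostasis and the 12 transwell samples, as a description. Samples fall into cell types, so points share cell type and library. Duoxa2 (0.94), Tmem40 (0.93) and Cxcl17 (0.93) were nearest to Ihh. Ctsh (0.82) was nearest to Dhh, Mmp11 (0.89) to Ptch1 and Neo1 (0.88) to Smo. Rgs6 (0.95), Galnt16 (0.97), Pcolce2 (0.99) and Angptl6 (0.94) led for Gli1, Gli2, Gli3 and Hhip, in that order. The highest correlations belonged to Gli3 and the lowest to Dhh.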

How the data were processed

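Smart-seq2 libraries, a full-length and unstranded method, were made from 24 samples and read as single reads. Per the labels, the authors aligned them to GRCm38 with STAR 2.5.0a and counted reads on exons with featureCounts 1.6.0. Transwell values are RPKM as deposited by the authors, rescaled here to TPM within each sample. Homeostasis values are called TPM by the authors, but the totals used as divisors were recycled from gene to gene in place of 1 total per sample, so that a deposited value is 0.722 to 1.39 times its TPM. These deposited values were used as they stand, and undoing the totals served as an alternative. A further 4 columns of population means were not used.

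Reads were recovered from low values, 93.1% (transwell) and 93.0% (homeostasis) of which came out whole within 0.02 of a read with exon lengths of GENCODE M21. Lengths of Dhh, Gli1 and Ptch1 were those that gave whole reads (2364, 3667 and 14126). Limits of 3 reads cover counting error only.

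Genes that reached 1 in 3 or more homeostasis samples, or in 2 or more transwell samples, were fitted as log2(value + 1) with limma 3.58.1 in R 4.3.3, with 1 mean per group, a trend and two-sided Benjamini-Hochberg adjusted p-values (threshold 0.05) over all genes tested. The paper names no test for these data. Fold changes on this scale understate the change of low genes. A group with no read for a gene adds no spread to the error of that gene. This held for Ihh, the GLI genes and Hhip in transwell groups and for Dhh in DCs at homeostasis. The fit was tested on simulated data. Python 3.11.15 was used for tables. Depth was 17.6 to 26.1 M reads per sample.

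All 9 genes are named. Other pathway genes come from 4 lists that were counted whole, with at most the 3 largest called changes named per comparison, and markers are named where they move with a result. Members and lists were chosen with earlier results of these data known. Populations of the homeostasis experiment come from the same 3 mice, so that letters pair samples by animal, although deviations of the same mouse correlated at only 0.00395 to 0.0973. Alternatives were a pseudocount of 0.1, no filter, a minimum of 5, quantile normalization, a fixed prior spread in place of the trend, each pair of groups fitted by itself, a replicate block, RPKM as deposited and each sample left out. Some genes of these lists are not reported here by name.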

Additional observations from a re-analysis of the deposited data

Results flagged for a closer look

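For 3 genes the change from day 0 to co-culture differed between SCA1+Msc cells and organoids by the interaction term in limma. Ihh rose in organoids (from 2.06 and 1.73 to 20.1 and 16.7 TPM) and had no read in SCA1+Msc cells at either time, which gave a difference in change of -2.74 on the log2(TPM + 1) scale (adjusted p = 0.000914). Gli1 fell in SCA1+Msc cells (from 23.5 and 14.2 to 0.259 and 1.40 TPM) and had no read in DCs or organoids, with a difference in change of -3.47 (adjusted p = 0.0018). Hhip fell in SCA1+Msc cells (from 16.5 and 11.8 TPM to 0) and had no read in DCs or co-cultured organoids, with a difference of -3.90 (adjusted p = 0.000313). Hhip entered the test through its day 0 SCA1+Msc samples only. In each case 1 side of the comparison was at 0 throughout, so the term carries the change of the other side. No group is large enough for a test of single samples that stand apart.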

How the results depend on the processing

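Counts of called genes moved by more than 1.5 times in few settings. A fit of only the groups compared gave 6 of 7 instead of 3 for PDGFRα+SCA1+ cells against DCs, 2 instead of 4 for PDGFRα+SCA1- cells against DCs and 1 instead of 4 for PDGFRα-SCA1+ against PDGFRα+SCA1- cells. Quantile normalization gave 5 for PDGFRα+SCA1+ cells against DCs, and RPKM as deposited gave 1 instead of 0 for co-cultured against EM organoids. With a sample left out, the count ranged from 0 to 2 for PDGFRα+SCA1+ against PDGFRα+SCA1- cells and from 1 to 2 for co-cultured SCA1+Msc cells against day 0. The cause was not tested, apart from Hhip, which no longer reached the minimum without either day 0 SCA1+Msc sample.

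Signs turned only for differences near 0 that passed no test. Gli1 between co-cultured and lone SCA1+Msc cells was -0.092 with a pseudocount of 0.1 and -0.45 to 0.48 with a sample left out. Gli3 in SCA1+Msc cells against day 0 was -0.066 alone on RPKM as deposited and -0.23 to 0.23 with a sample left out, and 0.038 in co-culture after quantile normalization and -0.24 to 0.22 with a sample left out. Ptch1 in the difference of changes was 0.037 after quantile normalization.

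With the replicate block, 4 of the 7 homeostasis genes differed between PDGFRα+SCA1+ cells and DCs. In the transwell experiment DCs and SCA1+Msc cells came from different littermates, so equal numbers do not pair the cell types. Within a cell type groups can share donors, but the sample titles do not name them. With the replicate block Ptch1 in co-cultured organoids lost its limma call (adjusted p = 0.0527) and Smo in EM organoids gained one (adjusted p = 0.0482). No other call among the genes and comparisons printed changed. Quantile normalization moved the median difference of all genes by over 0.1 in homeostasis, from -0.47 to -0.19 for PDGFRα+SCA1- cells against DCs, and the share of higher genes among calls from 58.1% to 43.9% for PDGFRα-SCA1+ against PDGFRα+SCA1+ cells and from 66.3% to 50.5% against PDGFRα+SCA1- cells. Undoing the reused totals changed no call among the genes described. A pseudocount of 0.1 ended the calls of Dhh in co-cultured organoids against day 0 (adjusted p = 0.102), of Gli2 in SCA1+Msc cells alone (adjusted p = 0.0543) and of Dhh between co-cultured SCA1+Msc cells and organoids (adjusted p = 0.0905). Levels under 3 reads could not be told from 0.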
